A study of Schizosaccharomyces pombe with 6 samples.

Results

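Replication protein A (RPA) was mapped by chromatin immunoprecipitation on microarrays along the interior of the right arm of chromosome I in the fission yeast Schizosaccharomyces pombe. The interval was fixed by position alone and ran from array position 3878859 to 5353000, away from the centromere and the telomere. It held 5019 of the 42707 genomic probes on the array. The RPA subunit Ssb1 was immunoprecipitated from cdc25-22 cells, which the labels call WT, and from cdc25-22 rad3∆ cells, with 3 replicate arrays per strain. By the labels all cells carried the temperature-sensitive cdc25-22 allele and the second strain also lacked rad3, except that the input channel of rad3∆ replicate 3 is labelled cdc25-23, while its IP channel is labelled cdc25-22. They were grown to exponential phase in EMM6S medium at 25 °C, held 4 h at 36.5 °C, released at 25 °C and given 6 mM hydroxyurea (HU). The array titles add the number 60, for which no unit is given. The labels do not say whether replicates came from separate cultures, so p-values measure the spread between these arrays.

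RPA is the heterotrimer that coats single-stranded DNA, as at replication forks, where it protects the strand and recruits other proteins. HU lowers the supply of deoxynucleotides by inhibiting ribonucleotide reductase, so forks slow after early origins have fired. Rad3 is the fission yeast ATR kinase, which is brought to RPA-coated DNA by Rad26 and signals through the S-phase checkpoint, which restrains later origins. Origins in fission yeast lie mostly in A+T-rich intergenic DNA, and cdc25-22 blocks entry into mitosis at the restrictive temperature, so that release gives a synchronous culture.

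The value of a probe is log2(IP/input) with the median nuclear probe of its array at 0, so every level below is relative to the rest of the genome on the same array. Because of that centring, a general rise or fall of RPA in a strain cannot be seen. Probes lay a median of 270 bp apart, and 1433 windows of 1 kb with at least 2 usable probes were tested on the arm among 12039 in the genome. Positions on this arm ran 6149 bp below those of the present reference, ASM294v3. The offset came from matching probe length to reference G+C content (r = -0.77 at 6149 bp, against -0.05 with no offset, over 1391 shortened probes). Matched in pieces of 50 kb, 26 of 30 gave it within 10 bp. The pieces that hold SPAC29E6.07, but1, nbp35 and pik3 gave 8715, 6167, 7836 and 13617 bp. The offset of the whole arm was used there too. Gene coordinates below are those of ASM294v3, and windows keep their array position. The rad3 gene itself, on another chromosome, checked the labels: its mean input signal lay at -0.31 ± 0.06 (SD, n = 3) in the WT arrays and at -4.32 ± 0.98 in the rad3∆ arrays. Of the 6 arrays, rad3∆ replicate 2 was dim, with 77.1% of arm probes above background in the IP channel against 93.1% to 99.4% on the other arrays. Window levels correlated across the arm between arrays at r = 0.75 to 0.84 within WT, 0.76 to 0.89 within rad3∆ and 0.71 to 0.91 between strains.

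The DNA before genes at the strongest RPA peaks, and before cdc22, is shown because origins and S-phase promoters lie in such intergenic sequence. Each is the stretch of 250 bases just before the annotated gene start in ASM294v3, on the gene's own strand, with copies of ACGCGT, AAAAAAAA or its complement TTTTTTTT in capitals. The tpp1 stretch (chrI:4077858-4078107, minus strand) lies beside the highest window of any shared RPA region of the arm, hsp90 (chrI:3891140-3891389, minus) beside the next, and cdc22 (chrI:4226720-4226969, plus) before the gene for the large subunit of ribonucleotide reductase.
tpp1: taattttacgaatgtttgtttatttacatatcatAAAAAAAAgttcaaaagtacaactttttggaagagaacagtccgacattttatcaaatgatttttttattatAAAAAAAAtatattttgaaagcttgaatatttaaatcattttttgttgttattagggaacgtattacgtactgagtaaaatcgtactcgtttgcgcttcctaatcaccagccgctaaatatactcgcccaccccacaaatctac
hsp90: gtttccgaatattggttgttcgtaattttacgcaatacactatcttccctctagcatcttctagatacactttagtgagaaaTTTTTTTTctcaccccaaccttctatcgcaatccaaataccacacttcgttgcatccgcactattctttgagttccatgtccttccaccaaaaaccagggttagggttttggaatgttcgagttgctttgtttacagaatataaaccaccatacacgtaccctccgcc
cdc22: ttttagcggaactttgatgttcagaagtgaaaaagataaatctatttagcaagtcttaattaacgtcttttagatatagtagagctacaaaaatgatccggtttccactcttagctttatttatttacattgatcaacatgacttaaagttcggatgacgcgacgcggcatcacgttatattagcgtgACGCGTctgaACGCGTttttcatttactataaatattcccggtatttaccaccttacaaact

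ACGCGT, the MluI box bound by the S-phase factor MBF, was present before cdc22 and absent from the other stretches. It reads the same on both strands, and 2.64% of the 5112 such windows of protein-coding genes in the genome held it. A run of 8 A or 8 T was found before tpp1 and hsp90 and not before cdc22, against 18.9% of all such windows. A+T made up 71.2% of the tpp1 stretch, 59.2% of that of hsp90 and 64.8% of that of cdc22.

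RPA was not spread evenly along the arm. In WT, 256 of the 1433 windows (17.9%) were enriched (a limma adjusted p under 0.05 and a strain level of 0.5 or more on the log2 scale, or 1.41-fold), and 249 (17.4%) were depleted at -0.5 or below. Over the whole genome, 18.4% of windows were enriched and 20.8% depleted in WT, so the arm's shares lay near the background. In rad3∆, 237 arm windows (16.5%) were enriched, against 18.8% of the genome. Depleted windows numbered 378 (26.4%) in rad3∆, against 21.3% of the genome. In the other arm interiors the rad3∆ depleted share ran from 3.11% (chromosome III left) to 30% (chromosome I left). The chromosome I left share in WT was 29.4%, and chromosome II right had 26.8% in WT and 26% in rad3∆. On the right arm of chromosome I, both strains shared 201 enriched and 231 depleted windows. No window there was enriched in 1 strain and depleted in the other. A further 147 windows were called depleted in rad3∆ alone and 18 in WT alone, which is a difference of calls and not a tested difference. Without rad3∆ replicate 3, whose input carries the cdc25-23 label, the rad3∆ depleted count was 246, with 240 in WT. That array is also the only rad3∆ array with exchanged dyes. Leaving an array out can end a call on adjusted p alone, as at pup1 in rad3∆ (-0.87, limma adjusted p = 0.0501). The cause of the lower count was not tested.

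Windows enriched in the mean of both strains formed 42 regions (runs of at least 2 such windows), called shared regions here, out of 315 in the genome. A shared region did not have to reach the threshold in each strain. That at mal2 and tyw3 had a fitted level of 0.41 in WT and 0.75 in rad3∆, and that at mtl16 0.62 and 0.44. The 42 regions covered 257 kb, with a median length of 5 kb on the arm and 6 kb in the genome, and the longest spanned 22 kb. Called in each strain on its own, 41 regions were found in WT and 42 in rad3∆. A counterpart in rad3∆ was touched by 37 of those in WT (90.2%), and 40 of those in rad3∆ (95.2%) had one in WT. The median gap between neighbouring shared regions was 9 kb, but the longest, from array position 4539001 to 4733000, left 194 kb with none.

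**Figure D1:**
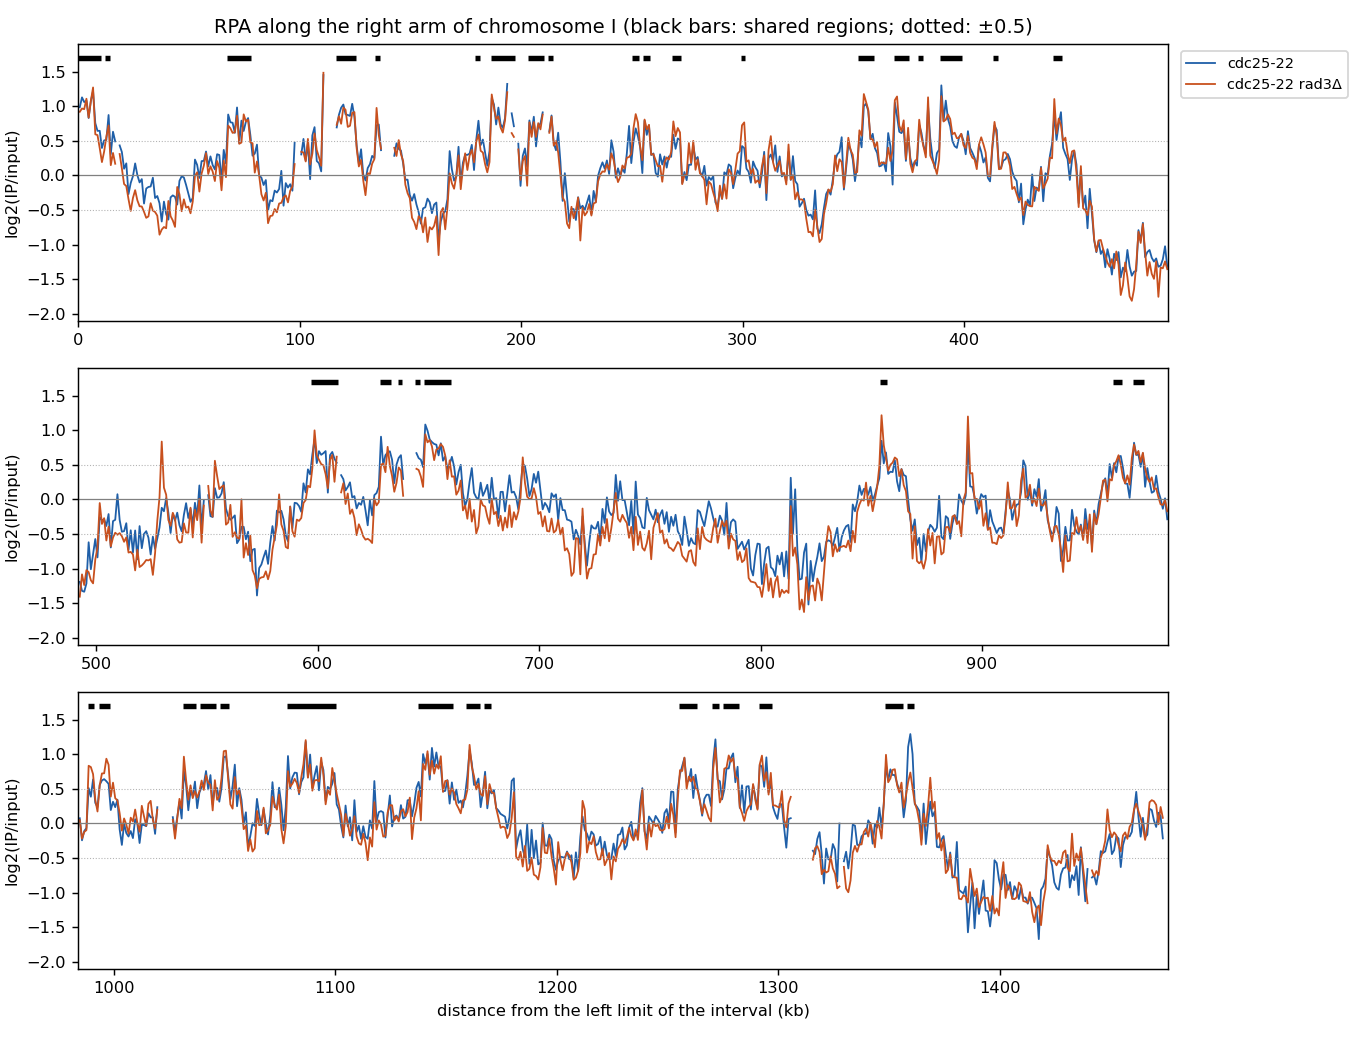
Fitted log2(IP/input) of each 1 kb window (y axis) against distance from the left limit of the interval in kb (x axis), in 3 rows of equal length, with WT (cdc25-22) in blue and rad3∆ in orange. Black bars mark the 42 shared regions and dotted lines the thresholds of ±0.5. The profiles of the strains follow each other, and the middle row holds the stretch of 194 kb with no shared region.

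The highest window of the arm had no enriched window on its left and no tested one on its right, and so lay in no region. It ran from 3989001 to 3990000, over no protein-coding gene, and read 0.99, 1.38 and 1.80 in WT and 1.44, 1.32 and 1.50 in rad3∆.

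The strongest region ran from array position 4065001 to 4076000 and covered its3, tpp1, adg2 and ted1; its3 encodes a phosphatidylinositol-4-phosphate 5-kinase and tpp1 the phosphatase that completes trehalose synthesis. Its highest window, 4072001 to 4073000, lay over the end of adg2. There the log2 ratio was 1.04, 1.21 and 1.60 in the WT replicates and 1.20, 1.15 and 1.15 in the rad3∆ replicates. All 6 arrays stood above 1, the strains overlapped, and the fitted levels were 1.32 ± 0.12 (SE) and 1.20 ± 0.12 (limma adjusted p = 3.8e-05 and 3.6e-05).

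The next region, 3874001 to 3889000, crossed the left limit of the interval and covered hsp90, the cytosolic chaperone gene, with rlc1, for the myosin II regulatory light chain, and SPAC926.02. Its top window, 3885001 to 3886000, lay between hsp90 and dph4, a diphthamide synthesis gene, and held nearly all of the hsp90 upstream stretch printed above. WT replicates read 1.39, 0.98 and 1.29 and rad3∆ replicates 1.30, 1.31 and 1.21. Again the groups overlapped and no array was below 0.9.

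In the region 4268001 to 4278000, the top window was its first, at the start of SPAC2C4.08, an uncharacterised gene. WT replicates read 1.38, 0.96 and 1.46, and rad3∆ replicates 1.23, 0.91 and 1.19. Replicate 2 was the lowest array of each strain. The longest region, 4957001 to 4979000, covered 12 protein-coding genes, among them clr2 of heterochromatic silencing, the histone acetyltransferase gene gcn5 and the checkpoint clamp gene rad1. Its top window, over otu2, which encodes a ubiquitin-specific protease, read 0.77, 0.97 and 1.53 in WT and 0.82, 1.13 and 1.39 in rad3∆.

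The other 6 of the 10 strongest regions had top windows between hgh1 and SPAC26F1.11, over sck2 (an S6-kinase-like gene), between fio1 (iron transport) and dal2 (allantoicase), at pcr1 (a stress-response transcription factor), at pik3 (the phosphatidylinositol 3-kinase) and over ccs1 and rer1. Their fitted mean of both strains ran from 1.02 to 1.15. The pik3 window was the most unequal of the 10, at 0.65, 0.74 and 1.02 in WT and 1.18, 1.04 and 1.30 in rad3∆. These groups did not overlap, and the fitted difference of 0.37 missed the threshold (limma adjusted p = 0.526). At hgh1 the arrays read 1.15, 1.17 and 1.30 in WT and 1.03, 1.13 and 1.07 in rad3∆, also without overlap. Adjusted p for a strain difference in the other 9 top windows ran from 0.839 to 0.990.

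**Figure D2:**
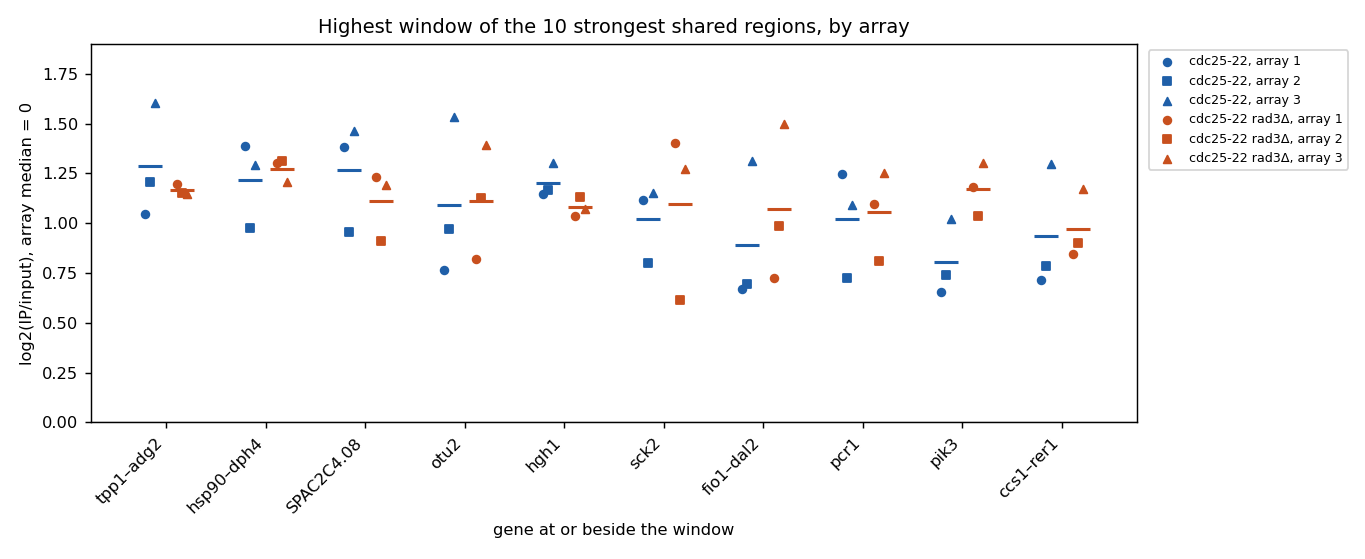
log2(IP/input) of the highest 1 kb window in each of the 10 strongest shared regions (x axis, named by the gene at or beside the window), with 1 point per array and the strain mean as a bar; WT is blue, rad3∆ orange. The arrays of the strains overlap in the regions other than those of hgh1 and pik3.

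The longest RPA-poor runs exceeded the longest shared region. The 3 longest runs of windows depleted in both strains were 45, 43 and 24 kb. The first, 5255001 to 5300000, held abp1, swr1 and csm1 among its genes; swr1 encodes the ATPase that places H2A.Z in chromatin and csm1 a monopolin subunit. Its mean was -1.12, -0.58 and -1.08 in WT and -0.89, -0.67 and -1.34 in rad3∆. The run 4337001 to 4380000, with nup146 (a nuclear pore protein), pup1 (a proteasome subunit) and eng2 (a cell-wall glucanase), averaged -1.16, -0.80 and -1.24 in WT and -1.06, -0.87 and -1.58 in rad3∆. The run 4668001 to 4692000, with the kinesin gene klp8 and the aromatic amino acid gene aro1, averaged -1.04, -0.56 and -0.79 in WT and -1.04, -0.78 and -1.51 in rad3∆. In all 3 runs replicate 2 was the least depleted array of each strain and the strains overlapped.

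At a scale of 100 kb, the arm alternated between rich and poor blocks. Counting segments of 100 kb from the left limit, segments 1 to 4, 7 and 11 to 13 had positive WT means, from 0.14 to 0.32. Segments 5, 6, 8, 9, 14 and 15 were negative, from -0.54 to -0.23, and segment 10 lay at 0.03. In rad3∆ segments 1 (-0.01) and 10 (0.00) lay near 0, the other signs were as in WT, and the range ran from -0.60 in segment 8 to 0.31 in segment 11. Across the 15 segments, whose neighbours share blocks of signal, mean RPA correlated at r = 0.44 with G+C content, at 0.15 with input signal and at 0.03 with the number of A+T-rich islands. Across the 1433 windows the correlation was -0.05 with G+C content and 0.003 with input.

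Segments 7 and 8 carried the widest strain gaps. Segment 8, from array position 4578859, averaged -0.49, -0.23 and -0.22 in WT and -0.49, -0.54 and -0.78 in rad3∆; replicate 1 of both strains was nearly equal, and the gap lay in replicates 2 and 3. There 26 windows were depleted in WT and 61 in rad3∆, and 28 were lower in rad3∆ at an unadjusted p under 0.05. Segment 7, just before it, averaged 0.17, 0.26 and 0.47 in WT and 0.11, 0.04 and 0.10 in rad3∆, with 33 enriched windows in WT and 20 in rad3∆. The rad3∆ arrays lay below every WT array in 6 of the 15 segments (1, 2, 7, 8, 12 and 13) and above in none. This depends on centring by the median. With the most frequent probe value of each array as its centre, the strains would overlap in these 6 segments too. Among the 102 segments of the 6 arm interiors of the genome, 16.7% were lower without overlap and 5.88% higher.

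**Figure D3:**
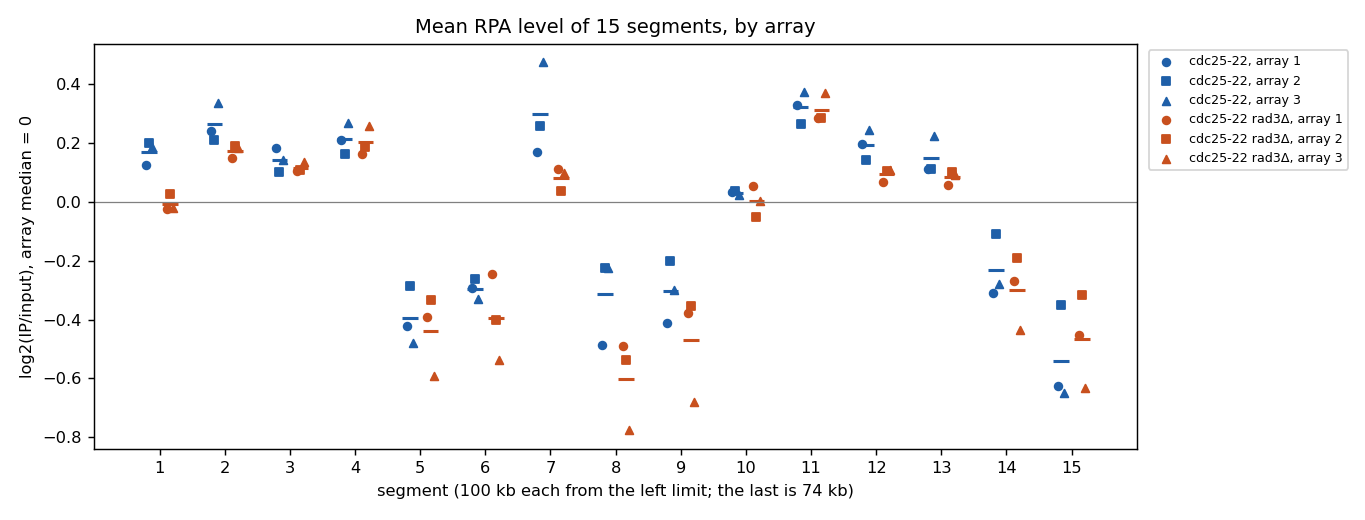
Mean log2(IP/input) of the windows in each 100 kb segment (x axis, numbered from the left limit), with 1 point per array and the strain mean as a bar; WT is blue, rad3∆ orange. Segments 5, 6, 8, 9, 14 and 15 lie below 0 on all arrays, and in segments 7 and 8 the rad3∆ arrays lie below the WT arrays.

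The whole arm averaged -0.06, 0.01 and 0.01 in the WT replicates and -0.08, -0.08 and -0.16 in the rad3∆ replicates. The rad3∆ arrays were lower, without overlap, by 0.09 on average. The exact two-sided permutation p was 0.1, the smallest that 3 against 3 arrays allow, and left out the pairing of arrays that share a slide. The result depends on the centring. The most frequent probe value (mode) lay above the median by 0.12, 0.04 and 0.13 in WT and by 0.01, 0.00 and 0.24 in rad3∆. Taking these modes as the centres would make the strains overlap. Side by side, the left arm interior of chromosome I had strain means (WT, then rad3∆) of -0.16 and -0.16. Those of chromosome II had 0.06 and 0.03 on the left and -0.15 and -0.12 on the right. Those of chromosome III had 0.32 and 0.25 on the left and 0.35 and 0.25 on the right. Chromosome II left and chromosome III right were also lower in rad3∆ on all 3 slides, with overlap of the strains. On the 3 slides that each held an array of each strain, the median window difference (rad3∆ minus WT) on the arm was -0.02, -0.07 and -0.14. The genome's own median difference was 0.01, -0.00 and -0.05 on those slides.

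No window on the arm passed the test for a strain difference (limma, adjusted over 12039 windows; lowest adjusted p = 0.0758), against 0.108% of the genome higher and 0% lower. With p under 0.05 before adjustment, 10 arm windows had higher values in rad3∆ and 110 (7.68%) lower ones, while 5.1% of the genome was higher and 3% lower. The arm, with 11.9% of the windows tested, thus held 30.5% of the lower ones and 1.63% of the higher ones. The lower count was 41 without WT replicate 3, 41 without rad3∆ replicate 3 and 170 without WT replicate 1. Without rad3∆ replicate 2, 28 windows were higher and 123 lower, and with the replicate block 23 were higher and 158 lower. The lower count was 57 with normexp background correction and 70 of 1235 windows with probes above background only. Replicate 3 is also the pair of arrays with exchanged dyes.

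The lowest adjusted p belonged to the window 5206001 to 5207000, inside ptr1, which encodes a ubiquitin ligase of the HECT type. The WT replicates read 0.00, -0.11 and 0.05 and the rad3∆ replicates -0.75, -1.19 and -0.85. The groups did not overlap; the fitted difference was -0.91 ± 0.16 (SE) with a limma adjusted p of 0.0758. With the slide as a replicate block, the same difference passed at an adjusted p of 0.0301, as did that of window 4694001 below, and these were the only 2 arm windows to do so. In that blocked fit 0.0166% of the genome's windows were lower and 0.341% higher.

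The window 4694001 to 4695000 lies over hht1, a gene for histone H3. It read 0.44, 0.75 and -0.31 in WT and -0.39, -0.13 and -1.12 in rad3∆. The groups overlapped, yet the difference was alike on each slide, at -0.83, -0.88 and -0.81 (limma adjusted p = 0.0826; 0.0307 with the replicate block). The other 3 windows with the largest falls were at alg9 and pmo25 (-0.86), tea5 (-0.78) and nbp35 (-0.77), with adjusted p from 0.176 to 0.415. At alg9 and pmo25, rad3∆ and WT replicate 1 were nearly equal, and without WT replicate 1 the difference was -1.31 and passed (adjusted p = 0.0121).

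The largest rise was in the window 4408001 to 4409000, at SPAC29E6.07, an uncharacterised gene. WT replicates read -0.43, -0.23 and 0.08 and rad3∆ replicates 1.06, 0.15 and 1.08. The groups did not overlap, with rad3∆ replicate 2, the dim array, near the WT values. The difference was 0.96 ± 0.22 (SE; limma adjusted p = 0.151), and without rad3∆ replicate 2 it was 1.22 and passed (adjusted p = 0.0256). The 4 windows that followed, at zip3, between adg1 and SPAC2H10.04, at hsp9 and at pcr1, differed by 0.49 to 0.60 with adjusted p from 0.392 to 0.584.

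**Figure D4:**
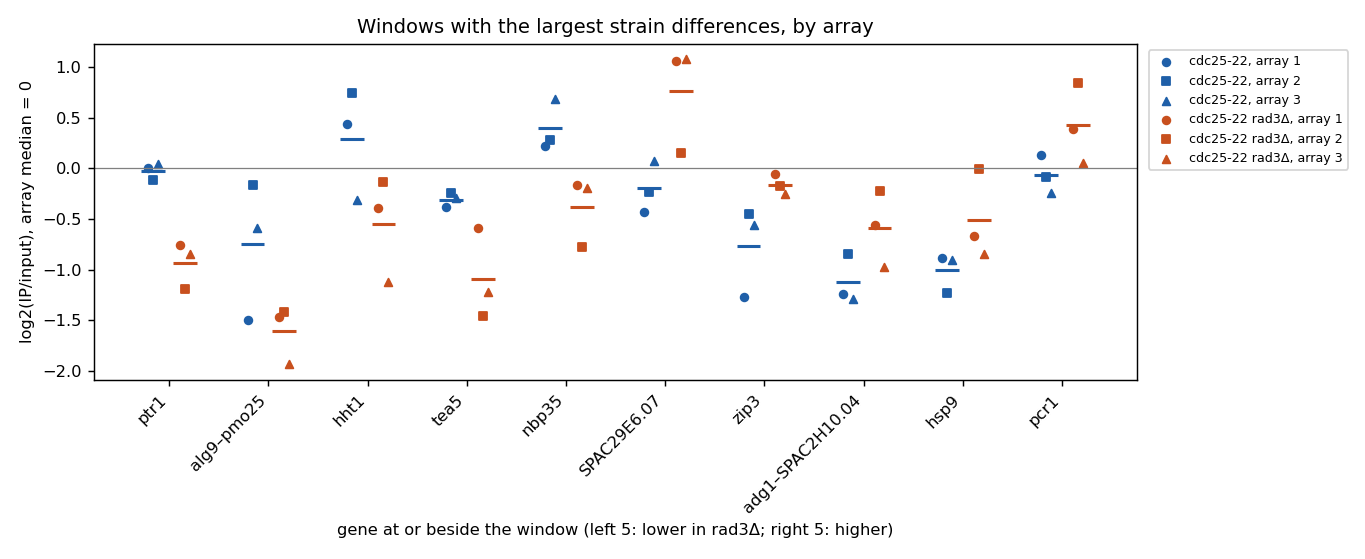
log2(IP/input) of the 5 windows with the largest fall and the 5 with the largest rise in rad3∆ (x axis, named by gene), with 1 point per array and the strain mean as a bar; WT is blue, rad3∆ orange. The rad3∆ arrays at ptr1 lie between -1.19 and -0.75 with WT near 0, and rad3∆ replicate 2 at SPAC29E6.07 lies near the WT arrays.

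None of the 42 shared regions differed between strains (limma, lowest adjusted p = 0.128), against 6.35% of the 315 regions of the genome higher and 0% lower. Without adjustment, 2 had p under 0.05 with a higher value and 1 with a lower value, against 15.6% and 1.9% of the genome's regions. With the replicate block, 3 arm regions passed, and 12.7% of regions in the genome were higher and 2.33% lower. The region 5237001 to 5240000, over agn1, an alpha-glucanase gene of cell separation, mug5 and SPAC14C4.10C, averaged 0.74, 1.40 and 1.16 in WT and 0.23, 0.76 and 0.77 in rad3∆. It was lower on each slide, by -0.51 in the blocked fit. The regions at mal2 (a kinetochore gene) and tyw3, and at grx1 (glutaredoxin) and ceo5, were higher by 0.34 and 0.28.

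Of 622 protein-coding genes on the arm, 589 had at least 2 probes and were tested. In WT, 99 were enriched and 86 depleted, and in rad3∆ 94 and 144; 76 were enriched in both. The genome's shares were 16.6% enriched and 20.2% depleted in WT and 16.4% and 21.2% in rad3∆. The highest gene was but1, annotated as a thioredoxin-family protein, at 0.87, 0.85 and 1.39 in WT and 0.69, 0.75 and 1.15 in rad3∆. The rest of the 10 highest were SPAC926.02, yih1, otu2, hsp90, rer1, rlc1, SPAC2C4.09, SPAC2C4.08 and csc4. Their fitted levels ran from 0.95 to 1.11 in WT and from 0.81 to 1.04 in rad3∆. The genes hsp90, rlc1 and SPAC926.02 adjoin each other, as do SPAC2C4.08, SPAC2C4.09 and csc4, so these are not independent peaks.

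The lowest gene was ayr1, for 1-acyldihydroxyacetone phosphate reductase of lipid synthesis, at -1.09, -1.12 and -1.35 in WT and -1.41, -1.44 and -2.12 in rad3∆. All rad3∆ arrays lay below all WT arrays, but the difference of -0.47 did not pass (limma adjusted p = 0.359). The others were eng2, alg9 (a mannosyltransferase of protein glycosylation), pup1, aah2 (annotated as an alpha-amylase), SPAC23D3.13C, SPAC11E3.10, usp108, arp42 and klp3. Fitted levels of these 10 ran from -1.36 to -1.10 in WT and from -1.74 to -1.22 in rad3∆, and usp108 and arp42 overlap and share their probes. The call of pup1 in rad3∆ ended without rad3∆ replicate 3 (-0.87, adjusted p = 0.0501).

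No gene passed for a strain difference (limma, lowest adjusted p = 0.290), and none of the 4860 in the genome did. At an unadjusted p under 0.05, 1 arm gene was higher and 49 lower, against 4.18% and 2.7% of the genome. The largest fitted falls were at hht1 (-0.82), gid8 (-0.69), nbp35 (-0.63), emi5 (-0.61) and pmo25 (-0.60). The gene gid8 encodes a ubiquitin ligase subunit, nbp35 an iron-sulfur cluster assembly ATPase and emi5 a succinate dehydrogenase factor. The largest rises were smaller, at grx1 (0.43), pcr1 (0.29), SPAC11H11.03C (0.27), atl1 (0.27, an alkyltransferase-like DNA repair protein) and zip3 (0.26, a zinc transporter). The gene grx1 read 0.02, 0.16 and 0.66 in WT and 0.45, 0.63 and 1.04 in rad3∆, higher on each slide while the groups overlapped.

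Genes of the checkpoint pathway lie along the arm at unlike levels. The sensor clamp is made of Rad9, Rad1 and Hus1, and Rad17 loads it. At rad1 the log2 ratio was 0.42, 0.74 and 0.86 in WT and 0.35, 0.78 and 0.72 in rad3∆, and the gene was enriched in both. At hus1 it was -0.70, -0.70 and -0.62 in WT and -0.49, -0.97 and -1.02 in rad3∆, and the gene was depleted in both. These genes differ in level by more than their arrays' spread within either strain. The fitted level of rad17 was 0.21 in WT and 0.39 in rad3∆, that of mrc1, the mediator of replication checkpoint signals, -0.32 and -0.31. That of rad26, the partner of Rad3, was -0.47 and -0.61, depleted in rad3∆ alone. Without rad3∆ replicate 3 that call ended (-0.51, adjusted p = 0.0654), without WT replicate 2 or 3 rad26 was depleted in WT too (-0.52 and -0.57), and without rad3∆ replicate 2 rad17 was enriched (0.51). Of the 5, 1 was enriched and 1 depleted in WT and 1 and 2 in rad3∆, with a WT median of -0.32 against 0.00 for all tested arm genes. Those 589 genes held 99 enriched and 86 depleted in WT, and 94 and 144 in rad3∆.

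None of the 5 replication factor genes was enriched. These were cdc1, a DNA polymerase delta subunit (fitted 0.16 in WT and 0.05 in rad3∆), the clamp loader genes rfc3 (-0.28 and -0.42) and rfc2 (-0.29 and -0.36), mrc1, and the helicase factor gene cdc45 (-0.36 and -0.58). Only cdc45 in rad3∆ was depleted, and not without rad3∆ replicate 3 (-0.48). Their medians were -0.29 and -0.36. For comparison, the WT calls covered 99 (enriched) and 86 (depleted) of the 589 tested arm genes. The rad3∆ calls covered 94 and 144 of them. A list of 5 is too short for its counts to be told apart from this background.

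The gene cdc22, for the large subunit of the enzyme that HU inhibits, read 0.17, 0.49 and 0.45 in WT and 0.01, 0.10 and 0.34 in rad3∆. The fitted levels of 0.40 and 0.18 were under the threshold, rad3∆ was lower on each slide, and the groups overlapped (difference -0.22 ± 0.14 SE, limma adjusted p = 0.696). Of the other nucleotide supply genes, ade2 of purine synthesis was depleted in both strains (-0.51 and -0.74), though not in WT without WT replicate 1 (-0.47) or with the replicate block (-0.49). The dihydroorotase gene ura2 was at -0.30 and -0.39, and was depleted in rad3∆ without rad3∆ replicate 1 (-0.54). The MBF targets on the arm were cdc22, rfc3 and mrc1, and 0 of the 3 was enriched or depleted. For all 589 tested arm genes the counts were 99 enriched and 86 depleted in WT, and 94 and 144 in rad3∆.

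The histone genes on the arm were the divergent pair hht1 and hhf1, for H3 and H4, and hta2, for H2A. At hht1 the values were -0.16, 0.66 and -0.41 in WT and -0.76, -0.41 and -1.18 in rad3∆, and at hta2 0.79, 0.42 and 0.19 in WT and 0.27, 0.10 and -0.21 in rad3∆. Both were lower in rad3∆ on every slide, with fitted differences of -0.82 and -0.41 and adjusted p of 0.290 and 0.426, while the groups met at -0.41 at hht1 and overlapped at hta2. The fitted level of hhf1 was -0.32 in WT and -0.77 in rad3∆, a difference of -0.44 (adjusted p = 0.535). In rad3∆, hht1 and hhf1 were depleted, the latter not without rad3∆ replicate 3 (-0.66, adjusted p = 0.0509). Of the 589 tested arm genes, 144 were depleted in rad3∆, and 21.2% of the genome's genes were. The genes hht1 and hhf1 adjoin, so their calls are not independent. The list median difference was -0.44, against -0.08 for all tested arm genes. Fission yeast has near-identical copies of H3 and H4 genes elsewhere, and probe sequences were not used here, so the signal cannot be assigned to 1 copy.

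Of 13 ribosomal protein genes on the arm 8 were measured, and 3 were enriched and 3 depleted in WT, and 1 enriched and 3 depleted in rad3∆. Among the 589 tested genes of the arm, 99 were enriched and 86 depleted in WT, and 94 and 144 in rad3∆. The highest ribosomal genes were rpl1602 (0.58 in WT and 0.57 in rad3∆) and rps801 (0.53 and 0.45), and the lowest rps1102 (-0.80 and -0.84) and rps002 (-0.52 and -0.83). Several calls ended when 1 array was left out. That of rps002 in WT ended without WT replicate 3 (-0.45), that of rps801 in WT without WT replicate 1 (0.35) or 3 (0.61), and rps801 was enriched in rad3∆ without rad3∆ replicate 2 (0.51). The rpl1602 calls ended without WT replicate 3 (0.56) in WT and without rad3∆ replicate 2 (0.42) or 3 (0.59) in rad3∆. The call of rpl801 in WT ended without WT replicate 1 (0.26) or 3 (0.60). Without replicate 3 the levels of rps801, rpl1602 and rpl801 stayed past 0.5. Those calls ended on adjusted p alone (limma, 0.0634 to 0.155). With the replicate block, rps002 at -0.46 and rpl801 at 0.44 were not called in WT. Many ribosomal proteins have paralogous gene pairs, with the same limit as for the histones.

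Among strongly transcribed genes of translation and glycolysis, tif51, for eIF5A, was enriched in both strains at 0.65, 0.77 and 0.41 in WT and 0.71, 0.64 and 0.72 in rad3∆. So was gpm1, for phosphoglycerate mutase (0.65 and 0.63), although in rad3∆ not without rad3∆ replicate 3 (0.53, adjusted p = 0.0529). The helicase gene tif1, for eIF4A, lay at -0.50 in WT and -0.47 in rad3∆, just short of the threshold, and crossed it in WT without WT replicate 1 (-0.51), WT replicate 3 (-0.60) or rad3∆ replicate 1 (-0.51) and in rad3∆ without rad3∆ replicate 2 (-0.60). Of 6 stress genes, hsp90 (0.98 and 1.02) and tpp1 (0.79 and 0.74) were enriched in both strains and pcr1 in rad3∆ alone (0.30 and 0.59). The rest were the co-chaperone gene wos2 (-0.16 and -0.36), hsf1 of the heat shock response (0.08 and -0.11) and hsp9 (-0.30 and -0.13). Across all 589 tested arm genes, 99 were enriched in WT, 94 in rad3∆ and 76 in both.

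Of 4 repair genes 3 were depleted in both strains: pms1 of mismatch repair (-0.55 and -0.73), ubc13 of postreplication repair (-0.51 and -0.94) and nse6 of the Smc5-Smc6 complex (-1.10 and -1.15). Of all 589 tested arm genes, 86 were depleted in WT and 144 in rad3∆ (20.2% and 21.2% of the genome's genes), and with 4 members nothing particular to the list can be read from its count. The gene smc5 lay at -0.14 and -0.16. At ubc13 the arrays read -0.63, -0.39 and -0.46 in WT and -0.88, -0.83 and -1.08 in rad3∆. They did not overlap, and the difference of -0.44 did not pass (limma adjusted p = 0.382). Its WT call ended without WT replicate 1 (-0.43) or rad3∆ replicate 3 (-0.49) and with the replicate block (-0.49). The mitotic list held no enriched member, against 99 of the 589 tested arm genes in WT and 94 in rad3∆. It consists on this arm of the kinesin genes cut7 (-0.16 and -0.26) and klp8 (-0.93 and -1.20), the anaphase-promoting complex gene nuc2 (0.19 and -0.06) and adg1 (-0.49 and -0.79). Both klp8 levels and the rad3∆ level of adg1 were depleted, and without WT replicate 2 so was adg1 in WT (-0.61). No cohesin or condensin gene of the list lies on the arm.

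**Figure D5:**
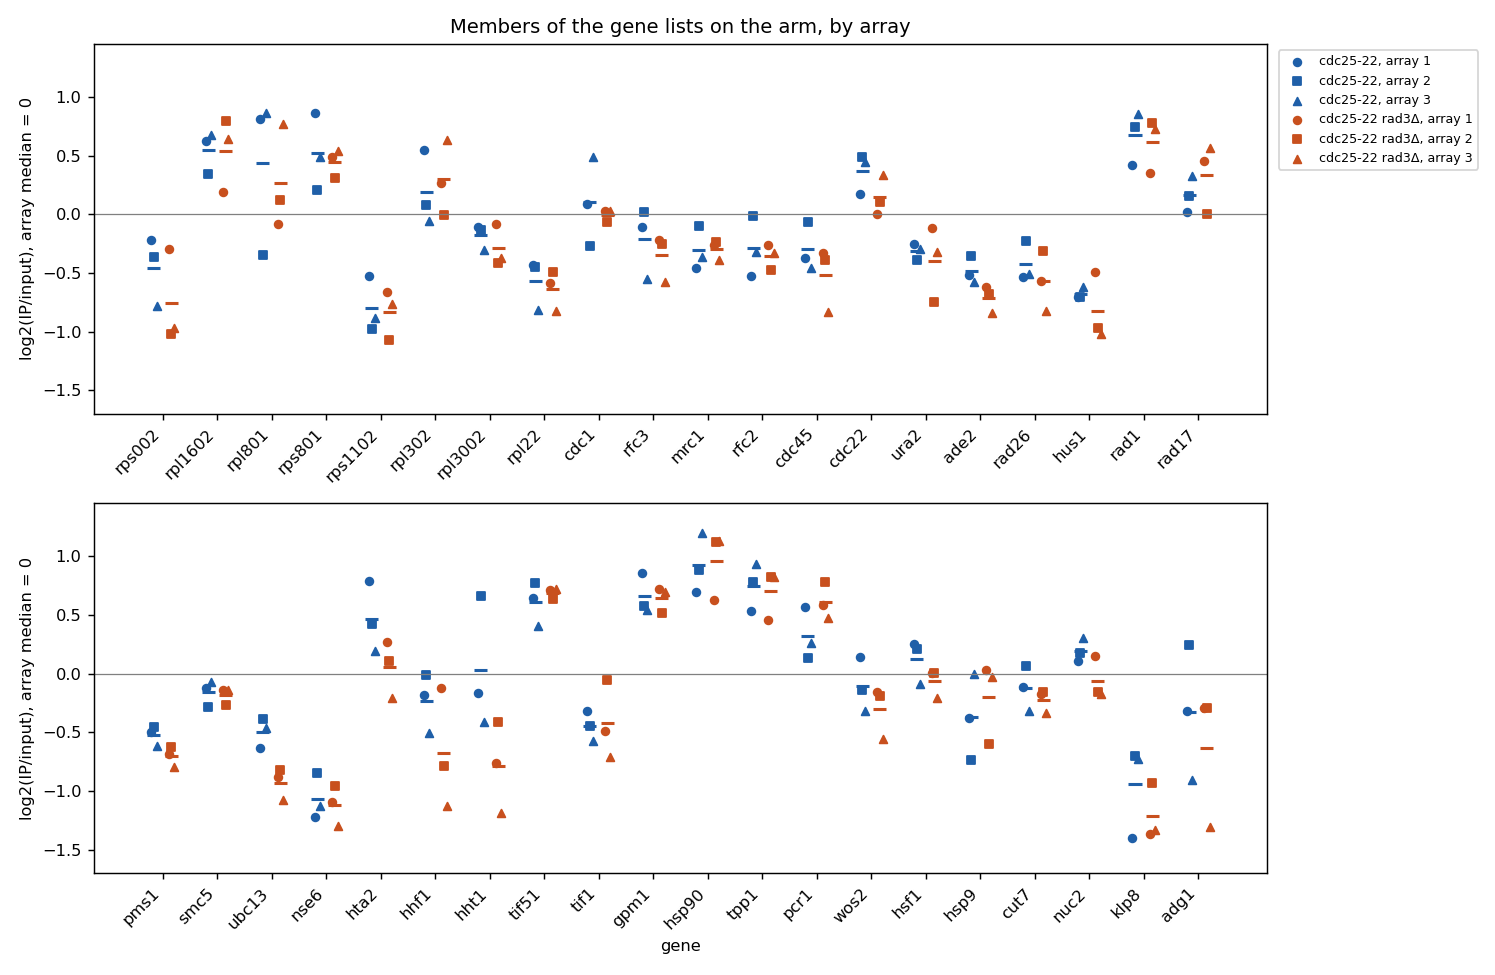
log2(IP/input) of the measured list members on the arm (x axis), averaged over each gene's probes, with 1 point per array and the strain mean as a bar; WT is blue, rad3∆ orange. The genes hsp90, tpp1, rad1, tif51 and gpm1 lie above 0 on all 6 arrays, and hus1, nse6, klp8 and rps1102 below 0 on all.

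Intergenic DNA was sorted by its A+T content and by the direction of its flanking genes. A+T-rich islands, with at least 75% A+T over 500 bp, numbered 38 on the arm, and averaged 0.27, 0.34 and 0.39 in WT and 0.67, 0.17 and 0.51 in rad3∆. The 339 measured islands of the genome, those of the arm included, averaged 0.25, 0.38 and 0.38 in WT and 0.72, 0.31 and 0.66 in rad3∆. Islands of the arm lay near these values in WT. In rad3∆ they lay below them on each array, which was not tested. Intergenic regions of the arm without an island averaged -0.03 ± 0.05 (SD, n = 3) in WT and -0.10 ± 0.07 in rad3∆. The spread of the rad3∆ island values, 0.26, was wider than the strain gap. Convergent intergenic regions averaged 0.23 ± 0.11 in WT and 0.10 ± 0.12 in rad3∆, tandem ones 0.06 ± 0.05 and -0.03 ± 0.09, and divergent ones -0.00 ± 0.05 and -0.02 ± 0.10. The 7 measured long terminal repeats of retrotransposons averaged 0.43 ± 0.23 and 0.36 ± 0.07.

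Islands of the arm ranged from -1.59 to 1.54 in mean level. Of the 38, 22 were above 0 on all 6 arrays, 7 below 0 on all 6, and 21 touched a shared region. Of the 93 measured intergenic regions of the arm without an island, 26 were above 0 on all 6 arrays, 31 below, and 13 touched a shared region. Of the 1433 windows of the arm, 381 were above 0 on all 6 arrays, 452 below, and 251 touched a shared region. Islands and the other intergenic regions differ in length and probe number, and these counts were not tested against each other.

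Input DNA gave no strain difference on the arm that passed (limma, 0 of 1433 windows; before adjustment 4 windows were lower at p under 0.05 and 0 higher, against 0.274% of the genome in either direction). The same test called 0 of the 12039 windows of the genome, although mean input at rad3 lay at -0.31 in WT and -4.32 in rad3∆. A test that misses a deleted gene cannot show that input was equal. The arm's mean input level was -0.04, -0.07 and -0.01 in WT and -0.06, -0.07 and -0.03 in rad3∆, relative to the nuclear median.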

How the data were processed

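RPA was measured by 2-colour Agilent arrays, IP against input, in 3 cdc25-22 and 3 cdc25-22 rad3∆ arrays with HU. Per the file headers, the authors deposited Agilent Feature Extraction output (version 10.7.1.1 or 10.7.3.1, protocol CGH_107_Sep09), whose processed signal intensity is background-subtracted and dye-normalized. The deposited log10 ratio of red over green, per the file headers, served only to check the ratios. The headers name the genome build Spombe:NCBI:Feb2002. IP was green in replicates 1 and 2 and red in replicate 3, per the labels. The labels give the molecule as total RNA, although the title names ChIP.

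log2(IP/input) was centred on each array's median nuclear probe. Outlier-flagged probes (24 of 5019 on the arm) were left out. Windows, genes and regions were fitted across the genome with limma 3.58.1 in R 4.3.3 (strain means and a dye term, 3 residual degrees of freedom, Benjamini-Hochberg adjustment); gene and island coordinates use ASM294v3 and its annotation. The threshold was a log2 level of ±0.5 at an adjusted p under 0.05. The members and gene lists were chosen with earlier results of these data known. The sequences of some intergenic stretches are not reported here. The text names the 10 strongest shared regions, the 3 longest depleted runs, the 5 largest differences in each direction among windows and genes, the 10 highest and 10 lowest genes, and members of the 11 lists (above 6, the 2 highest and 2 lowest).

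Arrays with the same replicate number share a slide per the file headers, and their deviations from the strain means correlated at r = 0.34, 0.31 and 0.51, so the numbers pair the arrays. The number of arrays limits the precision. Alternatives covered centring, normalization, background, base composition, the dye term, the replicate block, window size, threshold and each array left out.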

Additional observations from a re-analysis of the deposited data

Results flagged for a closer look

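Among the named windows and genes, 1 window and 1 gene at the same place had every WT array on 1 side of the array median and every rad3∆ array on the other, and neither difference passed its test. In the window 4548001 to 4549000, over nbp35, an iron-sulfur cluster assembly gene, WT read 0.22, 0.28 and 0.68 and rad3∆ -0.16, -0.78 and -0.20, a difference of -0.77 ± 0.18 (SE; limma adjusted p = 0.176). The gene nbp35, averaged over 4 probes that partly make up this window, differed by -0.63 ± 0.17 (limma adjusted p = 0.336). It lies in segment 7, where the mean of all windows was 0.30 in WT and 0.08 in rad3∆.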

How the results depend on the processing

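Enriched windows in WT fell from 256 to 170 with centring on the mode, and enriched genes from 99 to 61. Mode centring called 1 shared region lower in rad3∆. At a log2 threshold of 1, 28 and 21 windows were enriched and 68 and 113 depleted in WT and rad3∆, and 5 and 3 genes enriched. With the replicate block, 2 windows were lower and 3 regions differed, and among the named levels and differences it ended 4 calls (rps002, rpl801, ade2 and ubc13 in WT) and changed no call beyond these and those 2 windows. In 2 kb windows, 4 kb were lower in rad3∆. Leaving out each array gave 171 to 266 enriched and 233 to 258 depleted windows in WT, 192 to 244 and 246 to 392 in rad3∆, 73 to 102 and 81 to 103 enriched genes, 0 to 1 windows higher, 0 to 1 lower and 0 to 4 regions that differed. The lowest rad3∆ depleted count came without rad3∆ replicate 3. Without rad3∆ replicate 2, 4 regions and 1 higher window passed, and without WT replicate 1, 1 lower window did. Matching input signal in place of probe length to reference G+C put the offset at 6237 bp (r = -0.13). The other counts stayed within 1.5 times their value. Of the named levels and differences under all alternatives, 2115 kept their side of the threshold, 52 lost it, 27 gained it and none reversed. Islands defined at 72% A+T averaged 0.16 in WT and 0.19 in rad3∆, against 0.33 and 0.45 at 75%. The cause of these changes was not tested.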

Other observations

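Levels of neighbouring windows on the arm, averaged over both strains, correlated at r = 0.90 for windows 1 kb apart, 0.59 at 10 kb and 0.17 at 50 kb, as a description over the 1433 windows. The island between SPAPB15E9.06 and the retrotransposon Tf2-5 was the highest outside the shared regions, at 0.96, 1.09 and 1.53 in WT and 1.35, 0.91 and 1.22 in rad3∆. The island between mek1, a meiotic kinase gene, and SPAC14C4.04 was at 1.17, 1.20 and 1.26 in WT and 1.49, 1.32 and 1.33 in rad3∆, where the groups did not overlap and no test was made.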
